A study of Rattus norvegicus with 3 samples.

Results

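The genes described here are 6 genes of organic osmolyte handling and of the response to hypertonicity in rat kidney inner medulla: Akr1b1, Sord, Slc5a3, Slc6a6, Slc38a2 and S100a4. They were chosen by name, as the probes that the platform annotation assigns to exactly 1 of these symbols. The choice was made with earlier results of these data known. All 6 were present, each with 1 probe and a value on all 3 arrays, out of 4388 named genes and 5760 probes. Each of 3 two-colour arrays compared inner medulla of rats given lithium for 1 month, in channel 1 (red), with inner medulla of controls, in channel 2 (green). Arrays 1 and 2 carried RNA of 2 rats per channel and array 3 RNA of 1 rat, and the labels give each array its own rats. Strain, sex, age and dose are not named in the labels. The deposited value is a log ratio of the channels whose base and direction are not stated. Values above 0 are read below as higher with lithium, on the assumption that the ratio is channel 1 over channel 2. This direction was not checked, and if the ratio ran the other way every sign would turn.

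The inner medulla is the zone of the kidney whose interstitial fluid is most concentrated, and its cells balance the salt and urea outside them with compatible organic solutes. Sorbitol is made inside the cell by aldose reductase, whereas myo-inositol, taurine and betaine are carried in by sodium-coupled transporters. The transcription factor Nfat5 (TonEBP) binds the tonicity element of several of these genes and raises their transcription when tonicity rises. Lithium taken over weeks causes nephrogenic diabetes insipidus, in which the kidney fails to concentrate the urine, and the series title names this condition as its subject. The comparison therefore asks how transcripts of osmolyte handling differ between the medullas of lithium-treated and control rats.

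The 6 genes did not share a direction. Akr1b1, S100a4 and Sord lay below 0 on all 3 arrays, Slc38a2 lay above 0 on all 3, and Slc5a3 and Slc6a6 changed sign between arrays. Over all 3818 tested features, which are named genes or single unnamed probes, 14.5% lay below 0 and 24.1% above 0 on every array. None of the 6 passed a limma adjusted p of 0.05 (Benjamini-Hochberg over all features), a threshold that 13 features (0.34%) passed (7 of them, 0.183%, higher and 6, 0.157%, lower). At an unadjusted limma p of 0.05, Akr1b1, S100a4, Slc38a2 and Sord passed, against 17.2% of all features. Of these Slc38a2 was higher, as were 9.72% of all features at that limit, and the other 3 lower, as were 7.49%. The mean log ratios of the 6 ran from −0.27 to 0.14 with a median of −0.05, and the median of all tested features was 0.01. With 3 arrays an exact two-sided sign test of 1 gene cannot go below p = 0.25, and the p-values depend on variance pooled across features by limma.

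**Figure D1:**
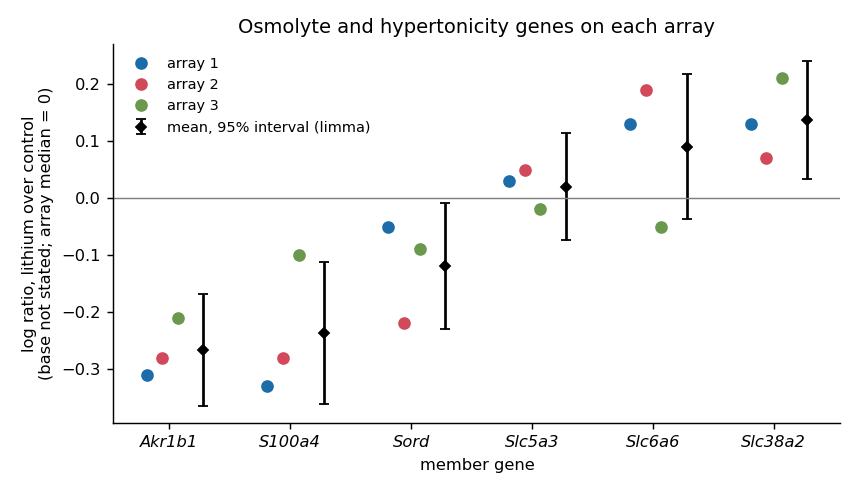
Log ratios of lithium over control (log base not stated, each array's median set to 0) for the 6 genes, ordered by their mean. Coloured points are the 3 arrays and the black diamond and bar are the mean and its 95% limma interval; the points of Akr1b1, S100a4 and Sord lie below 0, those of Slc38a2 above 0, and those of Slc5a3 and Slc6a6 on both sides.

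Akr1b1, aldose reductase, which reduces glucose to sorbitol, had the lowest mean of the 6. Its log ratios were −0.31, −0.28 and −0.21 on arrays 1, 2 and 3, a mean of −0.27 ± 0.05 (SD, n = 3). The arrays were close to each other, and the highest of them still lay well under 0. The mean is a ratio of 0.541 if the logs are base 10, with a 95% limma interval from 0.432 to 0.677, or of 0.831 if they are base 2, with an interval from 0.777 to 0.889. By mean it was the 30th lowest of 3818 features. On the single arrays 0.576%, 3.30% and 3.01% of tested features were lower. Over all measured probes, tested or not, arrays 1 and 2 were skewed to low values. Under −0.3 lay 3.46%, 9.73% and 1.03% of the probes on arrays 1, 2 and 3, and over 0.3 lay 0.251%, 0.264% and 0.420%. Its limma adjusted p was 0.0645 (unadjusted p = 0.000321), the 19th smallest p of all features, so that it stood 6 places after the last of the 13 that passed. The call differed between settings. The adjusted p was 0.0153 once every array was scaled to 1 common spread, 0.0358 with arrays weighted by the rats they pooled and 0.00789 with a robust prior. With any 1 array left out it was 0.296 to 0.743, but no feature at all passed in those fits. Over all 16 alternatives it ran from 0.000542 to 0.743, and every one gave a mean between −0.30 and −0.25. Settings of prior, threshold and probes could not change this mean, since Akr1b1 has 1 probe measured on every array.

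Sord, sorbitol dehydrogenase, which oxidises sorbitol to fructose and so removes what Akr1b1 makes, also lay below 0 on each array, by less. Its log ratios were −0.05, −0.22 and −0.09, a mean of −0.12 ± 0.09 (SD, n = 3) and a limma adjusted p of 0.257. Array 2 alone was far from 0. The 95% limma interval ran from −0.23 to −0.01 on the log ratio scale, which is a ratio of 0.588 to 0.978 in base 10 or 0.852 to 0.993 in base 2. Akr1b1 was the lower of this enzyme pair on each array, by 0.26, 0.06 and 0.12 on the log ratio scale. The difference between both enzymes was −0.15 ± 0.10 (Akr1b1 minus Sord, SD, n = 3) and was not tested. The mean of Sord was −0.07 without array 2 and −0.18 when each print block was set to its own median.

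Slc5a3, the sodium/myo-inositol cotransporter, sat at the middle of the features. Its log ratios were 0.03, 0.05 and −0.02, a mean of 0.02 ± 0.04 (SD, n = 3), with a limma adjusted p of 0.831. The 95% limma interval of the mean ran from −0.07 to 0.11, a ratio of 0.844 to 1.30 in base 10 or 0.950 to 1.08 in base 2. Of all features 53.9% had a lower mean. Without centring of the arrays the mean of Slc5a3 was exactly 0, so its sign depends on the centring.

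Slc6a6, the taurine transporter, read above 0 on both arrays of pooled rats and below 0 on the array of single rats. Its log ratios were 0.13, 0.19 and −0.05, a mean of 0.09 ± 0.12 (SD, n = 3), with a limma adjusted p of 0.423. The SD was larger than the mean. The 95% limma interval ran from −0.04 to 0.22, a ratio of 0.918 to 1.65 in base 10 or 0.975 to 1.16 in base 2. On arrays 1 and 2 only 6.29% and 3.69% of features were higher, against 67.1% on array 3. Without array 3 the mean was 0.16 and without array 2 it was 0.04.

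The promoter of Slc6a6 is shown because it was the only one of the member promoters found to hold the invariant first letters of the tonicity element, TGGAAA. The window searched held 250 bases before to 50 after the start annotated by RefSeq on assembly GRCr8, on both strands. It was given for 5 of the 6 genes, all except Akr1b1. The window of Sord lies wholly inside the annotated gene. These letters occurred in 22.7% of all 33469 promoters of the same length, and 1 of the 5 is close to that share. The 30 bases around the match, on the plus strand at chr4:125752334-125752363, have the reverse complement of the motif in capitals.
Slc6a6: caagctggtattTTTCCAcccagcaggatg
The match begins 156 bases before the start used for the window. The outer edge of the annotated Slc6a6 gene, at base 125752340, lies inside the stretch shown and ahead of the match. The match is therefore within the annotated gene. A match of 6 letters is a description of the sequence and was not tested for binding.

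Slc38a2, the sodium-coupled neutral amino acid transporter SNAT2 of system A, whose activity is known to rise in cells under hypertonic stress, had the highest mean of the 6. Its log ratios were 0.13, 0.07 and 0.21, a mean of 0.14 ± 0.07 (SD, n = 3). All 3 arrays lay above 0. The limma adjusted p was 0.191 (unadjusted p = 0.0165), and the 95% interval ran from 0.03 to 0.24, a ratio of 1.08 to 1.74 in base 10 or 1.02 to 1.18 in base 2. Of all features 3.59% had a higher mean. On array 3, where it was highest, the other 179 spots of its print block had a median of 0.12, and the part of this in the value was not tested. Setting each block to its own median left a mean of 0.12 (adjusted p = 0.156, in a range over the alternatives from 0.00964 to 0.743).

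S100a4, a small calcium-binding protein of the S100 family that has been described as responding to tonicity in collecting duct cells, was the second lowest of the 6. Its log ratios were −0.33, −0.28 and −0.10, a mean of −0.24 ± 0.12 (SD, n = 3). Arrays 1 and 2 stood well below array 3. The mean is a ratio of 0.580 in base 10 (95% limma interval 0.435 to 0.774) or 0.849 in base 2 (0.778 to 0.926). The limma adjusted p was 0.126 (unadjusted p = 0.00282). Lower values were found for 0.471%, 3.30% and 16.6% of tested features on the 3 arrays. Low values were more frequent among all measured probes of arrays 1 and 2, as given for Akr1b1. The adjusted p was 0.0413 once every array was scaled to 1 common spread and 0.0307 with a robust prior, and it ran from 0.00155 to 0.743 over the 16 alternatives. The mean was −0.19 without array 1 and −0.31 without array 3.

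The 100 bases before the annotated starts of S100a4 and Slc38a2 are shown because these were the lowest and the highest of the 5 genes with a promoter window. TATAAA, searched on both strands in the same windows, is in capitals. The S100a4 stretch is on the plus strand at chr2:178388429-178388528 and that of Slc38a2 on the minus strand at chr7:129742620-129742719, both from RefSeq on GRCr8.
S100a4: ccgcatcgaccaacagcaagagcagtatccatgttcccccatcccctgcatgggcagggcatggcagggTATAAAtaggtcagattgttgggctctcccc
Slc38a2: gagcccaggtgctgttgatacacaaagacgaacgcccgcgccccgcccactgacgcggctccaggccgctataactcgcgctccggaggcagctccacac
S100a4 had TATAAA 31 bases before its start. Slc6a6 had it too, 79 bases before its start, and 14.2% of all promoters held it. In the 250 bases before the start, S100a4 had 4 CG dinucleotides and a GC content of 57.6%, whereas Slc38a2 had 27 and 72.4%. The Sord window had 16 CG dinucleotides and the Slc5a3 window 3. The outer edge of the annotated Sord gene, at base 129638282, lies ahead of its window, so this count describes sequence within the gene.

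**Figure D2:**
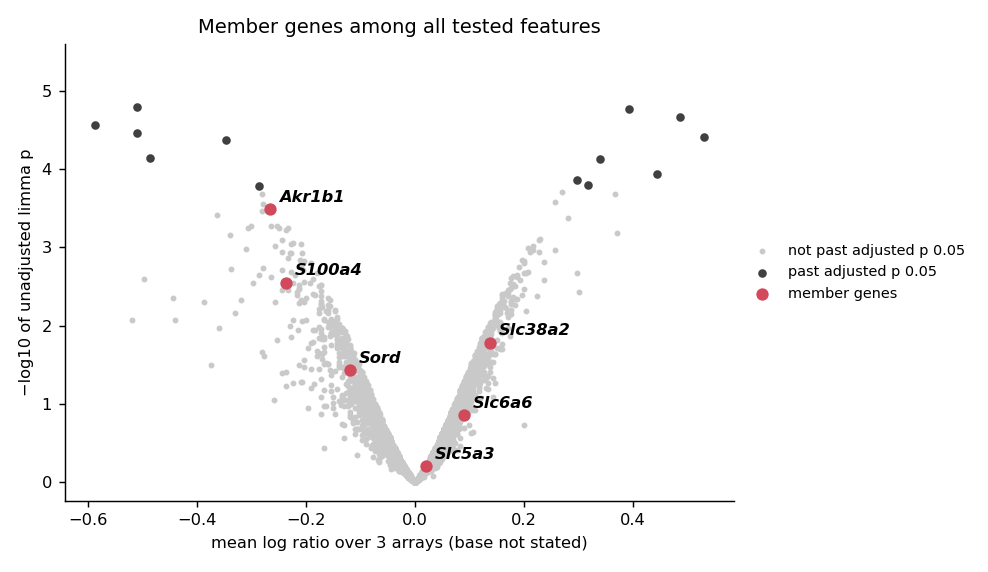
Mean log ratio over the 3 arrays (horizontal) against −log10 of the unadjusted limma p (vertical) for the 3818 tested features. Dark points are the 13 features past an adjusted p of 0.05 and red points the 6 genes; Akr1b1 lies just under the dark points on the left side and Slc5a3 at the foot of the plot.

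The genes were also set against each other within each array. Of the 15 pairs, 12 had the same order on all 3 arrays. The pairs share genes, and the matching share over pairs of all features was not computed. Akr1b1 lay below Slc38a2 by 0.44, 0.35 and 0.42, a difference of 0.40 ± 0.05 (SD, n = 3) on the log ratio scale. Akr1b1 and S100a4 differed by at most 0.11 on an array, were equal on array 2 and exchanged places between arrays 1 and 3. The 6 genes spanned 0.46, 0.47 and 0.42 on arrays 1, 2 and 3, and their SDs of 0.21, 0.21 and 0.14 stood beside SDs of 0.10, 0.14 and 0.11 over all tested features. The order of the means was Akr1b1, S100a4, Sord, Slc5a3, Slc6a6 and Slc38a2. The values of Slc5a3 and Slc6a6 overlapped, as did those of Slc6a6 and Slc38a2 and those of Akr1b1, S100a4 and Sord. Those of Sord and Slc5a3, which come next to each other in the order, did not overlap.

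The arrays and the place of the spots bear on these values as follows. Values correlated between arrays across the 4250 probes measured on all of them, with Pearson's r of 0.44 for arrays 1 and 2, 0.49 for arrays 1 and 3 and 0.15 for arrays 2 and 3, across probes that are not independent. Every array had lithium in red, so an effect of the dye and one of lithium cannot be told apart for any of the 6 genes. The probe IDs divide the spots into 32 blocks of 180, whose medians ran from −0.06 to 0.07, −0.07 to 0.05 and −0.09 to 0.12 on arrays 1, 2 and 3. The other spots of Akr1b1's block had medians of 0.04, 0.03 and −0.01 and those of S100a4's block −0.03, 0.02 and 0.01, so both genes lay far below their blocks on arrays 1 and 2. Among the 10 measured spots in the same printed row as Akr1b1, the median on array 3 was −0.12, where Akr1b1 read −0.21. The block of Sord stood at 0.07, −0.02 and 0.12, and its mean was accordingly lower within its block. With blocks set to their own medians the adjusted limma p was 0.0560 for Akr1b1, 0.107 for both S100a4 and Sord, 0.156 for Slc38a2, 0.244 for Slc6a6 and 0.766 for Slc5a3.

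**Figure D3:**
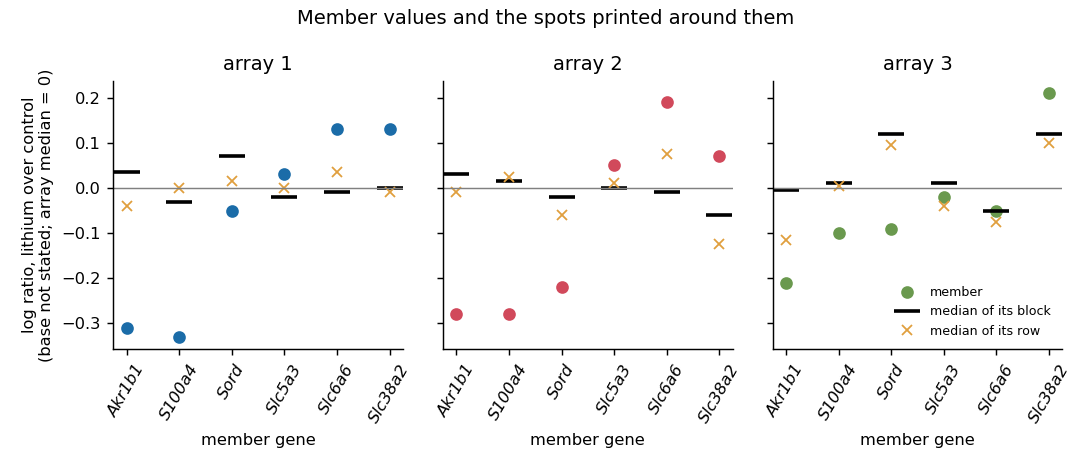
Log ratios of the 6 genes on each array (coloured points; base not stated) beside the median of the other spots of the same print block (black bars) and of the same row in that block (crosses). Akr1b1 lies below its block and its row on all 3 arrays, whereas Slc38a2 on array 3, at 0.21, lies above a block that is itself at 0.12.

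The other genes of osmolyte handling and hypertonicity, grouped in 9 lists, had no member past the threshold. Of 150 further genes, 102 had a probe and 84 were tested, with 0 past a limma adjusted p of 0.05 and 17 past an unadjusted 0.05, 7 of them higher and 10 lower (20.2% together, against 17.2% of all features). Below 0 on every array were 21 of the 84 (25.0%, against 14.5% of all features) and above 0 on every array 15 (17.9%, against 24.1%). Their median was −0.01, against 0.01 over all features. Nfat5 itself, the betaine transporter gene Slc6a12 and the hypertonicity-induced chaperone gene Hspa4l were not analysed here.

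Around the polyol enzymes, the general aldehyde reductase and the hexokinases had ratios near or above 0, unlike Akr1b1. Of 6 tested genes 3 lay above 0 and 3 below, with a median of −0.01. Akr1a1, the aldehyde reductase related to Akr1b1, stood at 0.02 ± 0.02 (SD, n = 3, limma adjusted p = 0.797). Hk2, a hexokinase that takes glucose into glycolysis, had 0.10 ± 0.04 (adjusted p = 0.254) and Khk, ketohexokinase, which phosphorylates the fructose made by Sord, at −0.02 ± 0.09 (adjusted p = 0.872). Akr1b7, a close relative of Akr1b1, had a value on array 2 alone, of −0.31. Whether the Akr1b1 spot also binds RNA of such relatives was not tested.

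Genes of inositol handling varied around 0 as Slc5a3 did, apart from Impa1. The 5 tested genes had a median of −0.01. Slc5a11, a second sodium/myo-inositol cotransporter, had a mean of 0.07 ± 0.05 (SD, n = 3, limma adjusted p = 0.396) and Miox, which breaks inositol down, at −0.01 ± 0.07 (adjusted p = 0.932). Impa1 encodes a monophosphatase of inositol and is a known target of lithium, and its mean was −0.21 ± 0.06 (adjusted p = 0.104). Its 2 probes differed, with −0.39 and −0.52 for one and −0.01 and −0.03 for the other on arrays 1 and 2, and the value of −0.16 on array 3 came from the second alone.

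The tested genes of taurine, betaine and amino acid handling had means between −0.12 and 0.14. Among 6 tested genes of taurine and cysteine metabolism (median −0.04), Got1, an aspartate aminotransferase, had a mean of −0.10 ± 0.07 (SD, n = 3, limma adjusted p = 0.311) and Cth, which makes cysteine from cystathionine, at −0.07 ± 0.09 (adjusted p = 0.50). Among 12 genes of betaine, choline and glycerophosphocholine (median 0.01), Chdh, choline dehydrogenase, which starts the making of betaine, stood at 0.12 ± 0.08 with values of 0.07, 0.07 and 0.21 (adjusted p = 0.257). The organic cation transporter gene Slc22a2 followed at 0.07 ± 0.05 (adjusted p = 0.398) and the dimethylglycine dehydrogenase gene Dmgdh at −0.08 ± 0.16 (adjusted p = 0.550). Among 13 amino acid transporter genes (median 0.00333), Slc38a2 had the highest mean. Its relatives Slc38a1, Slc38a3 and Slc38a4 stood at 0.06 ± 0.06, 0.00333 ± 0.07 and −0.00667 ± 0.03, with adjusted p of 0.522, 0.973 and 0.953. The glutamate transporter gene Slc1a3 stood at −0.08 ± 0.02 (adjusted p = 0.325) and the GABA and taurine carrier gene Slc6a13 at −0.12 ± 0.13 (adjusted p = 0.329). Genes without a value on every array were not tested, and some of them read further from 0: Pemt, which makes phosphatidylcholine, read −0.12 and −0.50 on arrays 1 and 2, Fmo1 0.21 and −0.01, Baat −0.20 and −0.01, and Slc1a2 −0.21 on array 2 alone.

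The S100 family, a list chosen with earlier results of these data known, leaned to one side, which was not tested as a set. All 6 tested members, S100a4 included, had a mean below 0, against 43.5% of all features, and 5 of them lay below 0 on every array, against 14.5% of all features. The list median was −0.09, with −0.07, −0.11 and −0.11 on the 3 arrays. It stayed below 0 under every alternative, from −0.12 to −0.07, though settings of prior and threshold could not move it. S100a6 read −0.17, −0.22 and −0.01, a mean of −0.13 ± 0.11 (SD, n = 3, limma adjusted p = 0.249), and S100b read −0.05, −0.16 and −0.11, a mean of −0.11 ± 0.06 (adjusted p = 0.257). S100a10, the partner of annexin A2, stood at −0.07 ± 0.03 (adjusted p = 0.383). S100a8, a product of myeloid cells, stood at −0.06 ± 0.15 with a value of 0.06 on array 2. S100a9 and S100g had values on arrays 1 and 2 alone, −0.07 and −0.35 for the former and −0.05 and −0.26 for the latter. None of the family passed, and 3 (S100a4, S100a6 and S100b) had an unadjusted limma p under 0.05, all of them lower, as 7.49% of all features were at that limit.

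**Figure D4:**
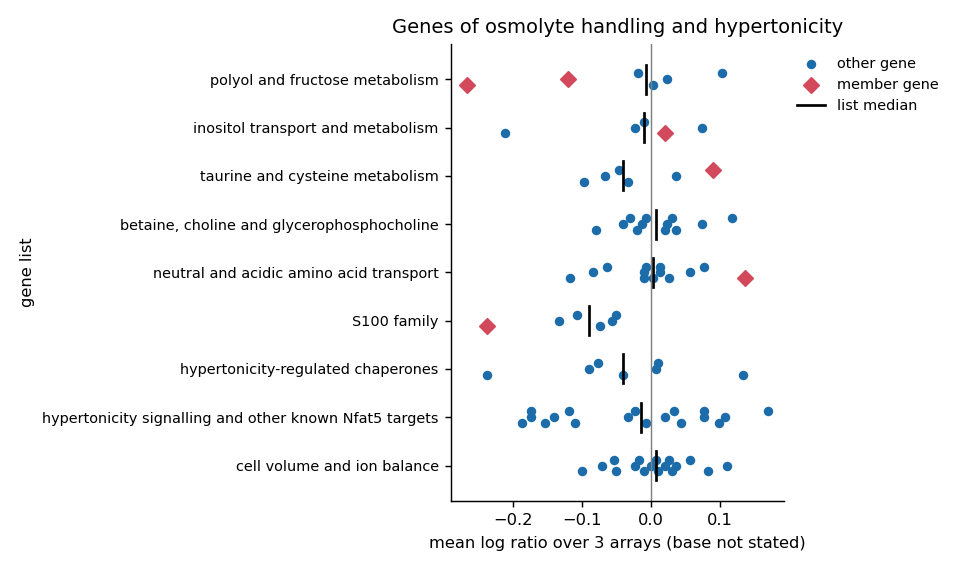
Mean log ratio over 3 arrays (base not stated) of each tested gene in the 9 lists; red diamonds are the 6 genes of this report, blue points the other genes and black bars the list medians. All 6 tested S100 genes lie below 0, whereas genes of the other lists lie on both sides.

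Chaperones and known targets or regulators of the hypertonic response lay on both sides of 0. Of 7 tested chaperone genes, Hspb6, a small heat shock protein gene, stood lowest at −0.24 ± 0.05 with values of −0.19, −0.28 and −0.24 (SD, n = 3, limma adjusted p = 0.0794). The related Hspb1 and Cryab stood at −0.09 ± 0.07 (adjusted p = 0.349) and −0.08 ± 0.08 (adjusted p = 0.413), and Hspa2 at 0.13 ± 0.09 (adjusted p = 0.223). Among 18 signalling and target genes, 9 (3 higher and 6 lower) had an unadjusted limma p under 0.05, a limit passed by 17.2% of all features, 9.72% higher and 7.49% lower. The 3 higher ones were the water channel gene Aqp2 at 0.17 ± 0.08, the urea transporter gene Slc14a2 at 0.10 ± 0.03 and the sodium pump subunit gene Atp1b1 at 0.11 ± 0.07. The 6 lower ones were the thin limb water channel gene Aqp1 at −0.19 ± 0.08, the kinase genes Mapk9, Mapk14 and Fyn at −0.17 ± 0.06, −0.12 ± 0.06 and −0.14 ± 0.11, the sodium pump regulator gene Fxyd2 at −0.17 ± 0.13 and the cyclooxygenase gene Ptgs2 at −0.15 ± 0.11. Their limma adjusted p-values lay between 0.135 and 0.277. The probes of Mapk14 differed, reading −0.30 and 0.02 on array 1, and of the probes of Mapk9 one read −0.28 and −0.60 on arrays 1 and 2 and the other −0.03 and 0.11. Of 17 genes of cell volume and ion balance (median 0.01), Aqp4 stood at 0.11 ± 0.07 (adjusted p = 0.265) and the mitochondrial porin genes Vdac2 and Vdac1 at −0.10 ± 0.10 and 0.08 ± 0.07 (adjusted p = 0.351 and 0.382).

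Markers of cell types lay on both sides of 0 beside these genes, and their part in the ratios of the 6 genes was not tested. In whole tissue, fewer cells of a type and less RNA per cell cannot be told apart. All 9 markers of collecting duct principal cells had a mean above 0, against 56.5% of all features, and 8 of them lay above 0 on every array, against 24.1%. The exception was Aqp3, at −0.02, 0.06 and −0.02. The list had a median of 0.13, with medians of 0.09, 0.13 and 0.14 on the 3 arrays. Hsd11b2 had its highest mean (0.49 ± 0.10, SD, n = 3, limma adjusted p = 0.0232), and dye and lithium cannot be told apart for it either. Both tested thin limb markers, Aqp1 and Bst1, lay below 0 (−0.19 and −0.11). The 4 tested markers of proximal tubule from cortex had means above 0, with a median of 0.12. Cubn, of the same list but measured on arrays 1 and 2 alone, read −0.22 and −0.36. The 3 tested markers of thick limb and distal segments from outer zones had a median of −0.10, with Umod at −0.18, Calb1 at −0.10 and Slc12a3 at 0.04. The 2 tested intercalated cell markers had a median of 0.02, and the 1 tested endothelial marker, Kdr, stood at −0.00667. The 5 stromal markers had a median of 0.02 and the 5 tested leukocyte markers one of 0.01. The leukocyte markers spread widely, with Itgam, an integrin of myeloid cells, at −0.55, −0.56 and −0.05 (limma adjusted p = 0.141) and Cd4, a marker of helper T cells and of rat macrophages, at 0.18, 0.12 and 0.18 (adjusted p = 0.140). Ratios give no level, so the labelled tissue could not be checked against its defining markers.

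The genes most like each of the 6 in pattern were found as the 3 named genes with the smallest root-mean-square difference over the 3 arrays, among 3393 candidates. For Akr1b1 these were Sycp1, Mycn and Acadm, at distances of 0.02, 0.04 and 0.04. Acadm was also among the nearest of S100a4, at 0.04, after Scamp5 and before Dnah17. The nearest of Slc38a2 were Cgrrf1, Gch1 and Rgs14, of Sord RragB, Nupr1 and Slc22a8, of Slc6a6 Col3a1, Hnrnpk and Fen1, and of Slc5a3 Ido1, Slfn4 and Cd151, all within 0.03. Akr1b1 and S100a4 lie where features are sparse, so their nearest genes were further off than those of Slc5a3 and Slc38a2, at 0.00577 each.

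**Figure D5:**
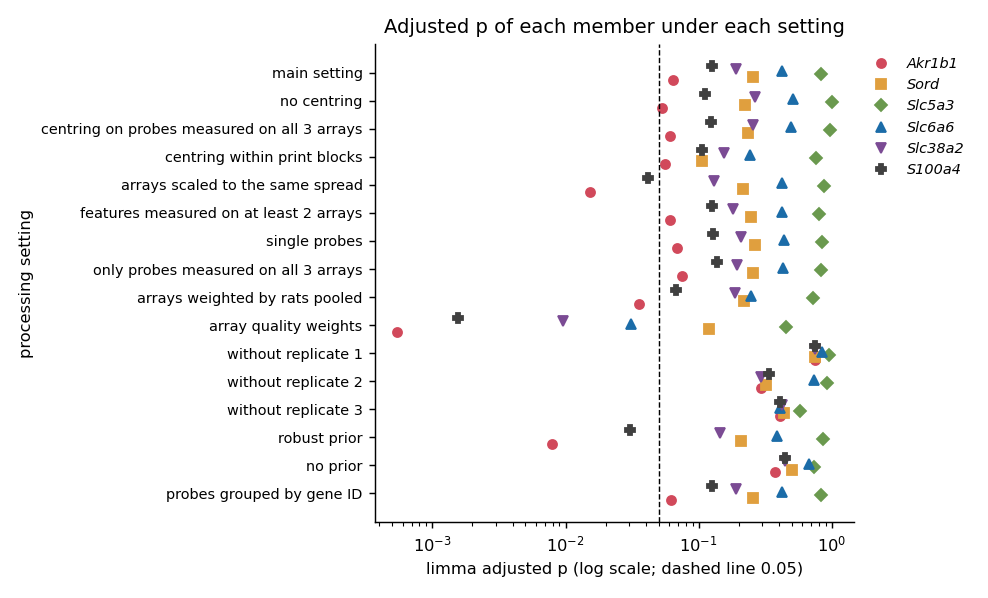
Limma adjusted p (log scale) of each of the 6 genes under the main setting and 15 other settings, with a dashed line at 0.05. Akr1b1 and S100a4 lie left of the line with scaled arrays, a robust prior and array quality weights, Akr1b1 also with arrays weighted by rats, and Slc38a2 and Slc6a6 with the quality weights. With an array left out none of the 6 genes does so, and no other tested feature passed there either.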

How the data were processed

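The deposited values, per the file's columns and the labels, are log ratios of the 2 channels for 5760 probes, 1 column per array. How the arrays were scanned and corrected, the log base and the direction: not given in the sources used here. Empty probes numbered 178, 78 and 1473 on arrays 1, 2 and 3. Spot intensities were not used here, and precision is limited by having 3 arrays.

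Each array's median (−0.02, −0.04 and 0) was subtracted and probes with the same single gene symbol (5064 probes) were averaged. The 3818 features measured on all 3 arrays entered a limma 3.58.1 fit under R 4.3.3 (intercept-only lmFit, eBayes, two-sided). Apoa2 and Scgb2a1 each join 2 gene IDs. All 6 members' gene IDs matched RefSeq's table. Tested on simulated data (3818 features, 200 of them shifted), the fit recovered 16.4%, 89.6% and 100% of shifts of 0.15, 0.3 and 0.5. It made 13 false calls among the simulated features without a shift. The simulated errors were independent between arrays and had the same spread on each. The measured arrays differed in spread (SD over all probes 0.135, 0.198 and 0.115), so these rates may not hold for them.

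The members and lists were chosen with earlier results of these data known. Named from each list were genes past the threshold and the 3 smallest p-values. The S100 family's other members, relatives of Slc38a2, Akr1a1, Akr1b7, Khk, Miox, Cryab, the genes past an unadjusted p of 0.05, the untested genes and the cell type markers were named after their values were seen, and the TATAAA search was added then too. Alternatives covered centring, scaling, weights, arrays left out, probes, prior and threshold. Figures were drawn with Python 3.11.15 and matplotlib 3.10.9.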

Additional observations from a re-analysis of the deposited data

How the results depend on the processing

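Every alternative kept the sign of the means of all 6 genes, except that Slc5a3 was 0 without centring. Settings of prior, threshold and probes could not change these means, because each gene has 1 probe measured on every array. The count of all features past the threshold, 13 in the report, was 20 with centring within print blocks, 98 with arrays scaled to the same spread, 40 with features measured on at least 2 arrays, 23 with arrays weighted by rats, 1058 with array quality weights, 95 with a robust prior, 8 without a prior and 49 at a threshold of 0.1. It was 0 (lowest and highest) with any 1 array left out, where 172, 606 and 444 features had an unadjusted limma p under 0.05 without array 1, 2 and 3. With probes grouped by gene ID, chosen after seeing the data, it was 17. Of the 6 genes, 0 passed in the report, 2 with scaled arrays, 1 with arrays weighted by rats, 4 with quality weights, 2 with a robust prior and 1 at a threshold of 0.1. The means were −0.27, −0.28, −0.30, −0.27 and −0.27 for Akr1b1 under these 5 settings, −0.24, −0.30 and −0.24 for S100a4 with scaled arrays, quality weights and a robust prior, and 0.13 for Slc38a2 and 0.11 for Slc6a6 with quality weights. The quality weights were 4.53, 0.371 and 0.595 for arrays 1, 2 and 3, so that setting rests mostly on array 1. Genes above 0 on every array used numbered 1, and 1 to 3 with an array left out, the 3 being without array 3. Of 144 list medians under the alternatives, 6 moved by more than the SD between arrays, though settings of prior and threshold could not move them. Each ratio already sets lithium against control on the same array, and the fit tested the mean of these ratios against 0. No further pairing could be added, because all 3 arrays form 1 group of direct comparisons. Depth in the sense of signal over background is not known for any probe.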
